A study of Mus musculus with 14 samples.

Results

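Klhl13 is an X-linked gene that was followed here through the differentiation of female mouse embryonic stem (ES) cells, as allele-specific RNA-seq reads from the active X chromosome (Xa) and from the chromosome that is being inactivated (Xi). Its members are the SNPs that lie in annotated exons of Klhl13, which were 4 of the 2239 X-linked SNPs in the deposited counts. The gene was chosen by its measured Xi/Xa ratio, which was higher at day 5 than at day 3 in the control cells, so the values of those control libraries are given as a description and carry no test. All 14 libraries came from 1 ES cell line, which was female, Setdb1+/+ and Xist∆A/+, and was derived from E3.5 embryos of 129 dams and Mus musculus castaneus (CAST) sires. The labels give the dams as 129/C57. The Xist∆A allele sits on the 129 X chromosome and leaves the CAST X chromosome as the obligate Xi in every library, controls included. Untransduced cells in 2i+LIF medium were sampled at day 0. Cells transduced with a retroviral non-silencing hairpin (Nons), with shSetdb1.4 or with shSetdb1.6, all selected with puromycin, were sampled at day 3 and at day 5 after differentiation was induced, with 2 replicates for each of the 7 conditions. The replicates were independent experiments on the same line, and the study states that some cells of such cultures lose an X chromosome and become XO.

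KLHL13 is a BTB-Kelch protein, a substrate adaptor that brings targets to ubiquitin ligases built on cullin 3. With its autosomal relative KLHL9 it is known for the removal of Aurora B from mitotic chromosomes. In female ES cells it is also known, together with the MAP kinase phosphatase Dusp9, as an X-linked gene whose dose affects how fast pluripotent cells differentiate. X chromosome inactivation (XCI) starts during differentiation, when Xist RNA coats one X chromosome, and genes on it are then silenced. A gene that follows XCI shows a falling share of CAST reads in these cells, which is a falling Xi/Xa ratio.

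Klhl13 (ENSMUSG00000036782.13) lies on the minus strand at chrX:23219271-23365082 in mm10. Of its 5 annotated coding transcripts, the longest (ENSMUST00000115319.8) has 7 exons and 3349 bases, and holds all 4 SNPs. The 4 sites are shown because every value below rests on them. They are written with the 129 base first, then the mm10 position on X, then the CAST base, on the plus strand. Each sequence runs 5′ to 3′ along the transcript strand of the reference, with the base at the SNP in capitals, so a plus-strand C appears as G.
The coding SNP G23235557A, exon 5: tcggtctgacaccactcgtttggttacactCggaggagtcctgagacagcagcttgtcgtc
The first 3′ UTR SNP C23219740T, exon 7: tgacccctctGcttataagaa
The second 3′ UTR SNP C23219719A, exon 7: ttggtttgggGttttttttaa
The third 3′ UTR SNP C23219650A, exon 7: aaaattgactGtcaggtcaaa
The coding SNP lies at codon position 3 and is synonymous. It lies 1558 bases upstream of the first 3′ UTR SNP in the spliced transcript, so a single read cannot cover both. The 3 SNPs of the 3′ UTR lie 90 bp apart from first to last, so that 1 read can cover several of them and is then counted at each. Over all libraries the coding SNP had 3690 reads, and the 3′ UTR SNPs had 2252, 2200 and 2318 reads in the order shown. Reads of the closely similar gene Klhl9 could map to the coding sequence, and the coding and 3′ UTR SNPs give separate readings in this respect.

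The libraries held between 32972 and 101511 reads over all X-linked SNPs (median 74648 reads), and the shallowest was replicate 2 of Nons at day 5. CAST reads made up 48.1% and 49.3% of all SNP reads at day 0, 49.4% to 50.6% at day 3 and 42.6% to 53.8% at day 5. The lowest of the day 5 values was replicate 1 of Nons and the highest was replicate 2 of shSetdb1.4. Setdb1 is autosomal, so its knockdown was not checked here. As an X-linked marker of pluripotent cells, Nr0b1, which encodes a nuclear receptor of the naive state, was followed. It had 737 and 1361 reads per 100000 X-linked SNP reads at day 0, between 854 and 1611 at day 3, and between 10.4 and 45.8 at day 5, so every day 5 library lay below every earlier library. Nr0b1 is 1 of a list of 6 genes known from X dosage or pluripotency, of which 3 others were tested. In the knockdown libraries their log2 change of total reads from day 3 to day 5 was 0.86 (Dusp9), 0.52 (Elk1) and -0.07 (Tfe3).

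Klhl13 had few reads up to day 3 and many at day 5. At day 0 its 4 SNPs held 563 reads per 100000 X-linked SNP reads in replicate 1 and 391 in replicate 2. At day 3 the level was 595 and 551 per 100000 in Nons, 832 and 573 in shSetdb1.4, and 541 and 401 in shSetdb1.6. At day 5 it was 1834 and 1280 per 100000 in Nons, 1733 and 1521 in shSetdb1.4, and 1844 and 1231 in shSetdb1.6. All 6 libraries of day 5 lay above all 8 earlier ones. In each of the 7 conditions replicate 1 exceeded replicate 2, and the fit of total reads holds no replicate term.

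Both alleles contributed to the higher level, in unequal amounts. The CAST allele gave between 165 and 242 reads per 100000 at day 0, between 172 and 413 at day 3, and between 870 and 1264 at day 5. The day 5 and day 3 libraries did not overlap in CAST reads. The 129 allele gave between 226 and 321 reads per 100000 at day 0, between 229 and 419 at day 3, and between 333 and 651 at day 5, and here the ranges of day 3 and day 5 overlapped. As differences of group means, the CAST allele accounted for 81.1% of the reads gained from day 3 to day 5 in Nons, 90.1% in shSetdb1.4 and 77.2% in shSetdb1.6. These are bulk libraries, so more cells that use the gene and more RNA per cell cannot be told apart.

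**Figure D1:**
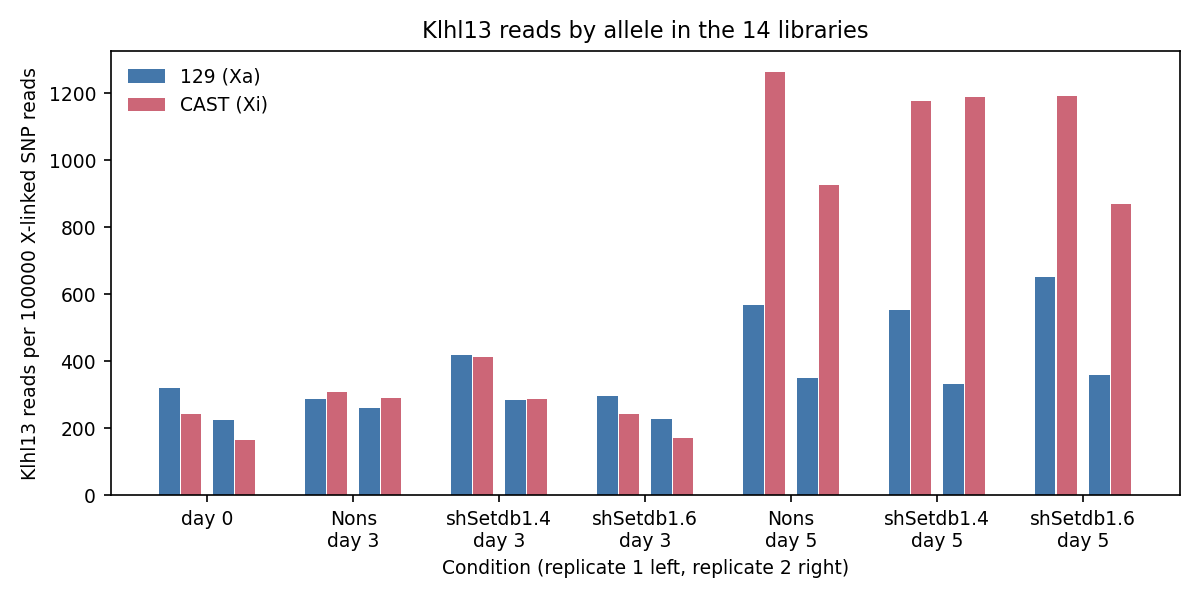
Klhl13 reads per 100000 X-linked SNP reads (y axis) in each of the 14 libraries (x axis, 7 conditions with replicate 1 left and replicate 2 right), with 129 reads in blue and CAST reads in red. The CAST bars of day 5 stand between 870 and 1264, above all earlier CAST bars, and the 129 bars of day 5 stand between 333 and 651.

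The CAST percentage of Klhl13 followed the same course. It was 43.0% (193 of 449 reads, 95% exact Clopper-Pearson interval 38.4% to 47.7%) and 42.3% (137 of 324 reads, 36.8% to 47.9%) at day 0, below an equal share in both replicates. At day 3 it was 51.6% and 52.6% in Nons, 49.7% and 50.2% in shSetdb1.4, and 44.9% and 43.0% in shSetdb1.6. At day 5 it was 68.9% (1101 of 1597 reads, 66.6% to 71.2%) and 72.5% (306 of 422 reads, 68.0% to 76.7%) in Nons. The shSetdb1.4 libraries of day 5 had 68.0% (910 of 1338 reads, 65.4% to 70.5%) and 78.1% (1206 of 1544 reads, 76.0% to 80.1%). The shSetdb1.6 libraries of day 5 had 64.7% (1204 of 1862 reads, 62.4% to 66.8%) and 70.7% (627 of 887 reads, 67.6% to 73.7%). The interval of the lowest day 5 library did not overlap that of the highest day 3 library. The intervals cover counting error only, and they are too narrow because a read over several 3′ UTR SNPs is counted more than once.

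Single SNPs also set day 5 above the earlier days, while the ranges of day 0 and day 3 overlapped at each SNP. At the coding SNP the CAST percentage was 43.5% and 44.4% at day 0, between 40.7% and 57.2% at day 3 (91 to 176 reads) and between 64.7% and 79.8% at day 5 (119 to 640 reads). At the first 3′ UTR SNP it was 41.7% and 43.1% at day 0, 38.6% to 52.9% at day 3 and 63.9% to 77.1% at day 5. The second 3′ UTR SNP had 44.2% and 45.9% at day 0, 36.4% to 55.3% at day 3 and 65.7% to 79.2% at day 5. The third had 34.3% and 42.3% at day 0, 41.3% to 55.9% at day 3 and 64.4% to 75.4% at day 5. At each of the 4 SNPs the 6 libraries of day 5 lay above the 6 libraries of day 3. Within a library the SNPs differed by 1.82 to 15.9 percentage points (median 5.93), most in replicate 1 of shSetdb1.4 at day 3, where the coding SNP had 57.2% and the third 3′ UTR SNP 41.3%. The coding SNP lay above the mean of the 3′ UTR SNPs in 9 of 14 libraries.

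**Figure D2:**
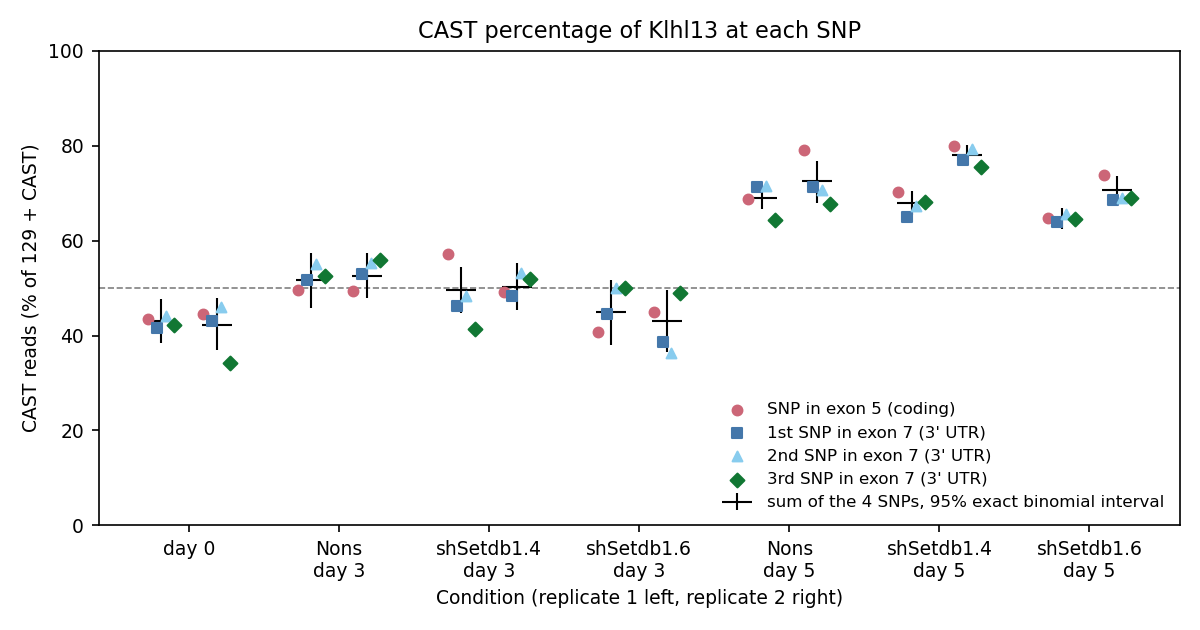
CAST reads as a percentage of 129 plus CAST reads (y axis) at each of the 4 Klhl13 SNPs (coloured symbols) in each library (x axis, replicate 1 left and replicate 2 right). Black marks are the sum of the 4 SNPs with its 95% exact binomial interval and the dashed line marks equal alleles; all symbols of day 5 lie between 63.9% and 79.8%.

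In the Nons libraries, which chose the gene, the log2 Xi/Xa ratio was higher at day 5 than at day 3 by 1.06 in replicate 1 and 1.24 in replicate 2 (mean 1.15 ± 0.13, SD, n = 2). The coding SNP alone gave a mean of 1.53 and the third 3′ UTR SNP alone 0.71. At day 3 it was higher than at day 0 by 0.55 ± 0.07 (SD, n = 2). Fitted across genes, Klhl13 had the largest difference of 247 genes between Nons at day 5 and day 3 (log2 1.16, standard error 0.21), followed by Pfkfb1 (1.00, standard error 0.54) and Tsc22d3 (0.86, standard error 0.55). The median over those genes was -0.33 on the log2 scale, in the direction of XCI, and 10.1% of genes passed the threshold in this contrast, a share from which nothing is read because the contrast chose the gene.

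The 8 libraries with a Setdb1 hairpin took no part in the choice, and they show the rise separately. In them the log2 Xi/Xa ratio of summed reads lay between -0.40 and 0.01 in the 4 libraries of day 3 and between 0.87 and 1.83 in the 4 libraries of day 5, without overlap. The Xi/Xa ratio rose by 1.44 on the log2 scale (standard error 0.15, 95% interval 1.15 to 1.73, a 2.71-fold rise) from day 3 to day 5, with an adjusted p of 7.05e-20 (edgeR, quasi-likelihood test, Benjamini-Hochberg). This was the smallest p among the 247 genes tested, of which 10.5% passed the threshold of 0.05 in either direction and 4.45% as a rise, and the median change over all of them was -0.01. An exact permutation test of the 8 single values, two-sided, gave p = 0.0286, the smallest value that 4 against 4 libraries allow. The 4 libraries of a day are 2 hairpins in each of 2 independent experiments, and the test treats them as exchangeable. Its p therefore does not rest on 4 independent replicates. Paired by hairpin and replicate number, all 4 pairs moved upwards, and the exact paired test, which cannot pass 0.05 with 4 pairs, gave the smallest p it allows.

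The rise was found with each hairpin. With shSetdb1.4 the log2 Xi/Xa ratio rose by 1.46 (standard error 0.20, adjusted p = 1.85e-11, edgeR), where 4.45% of genes passed the threshold. With shSetdb1.6 it rose by 1.42 (standard error 0.22, adjusted p = 9.53e-09, edgeR), where 3.64% of genes did. The difference between the hairpins in this rise was -0.04 for shSetdb1.6 against shSetdb1.4 (95% interval -0.62 to 0.54, adjusted p = 0.984, edgeR). The coding SNP alone gave a rise of 1.50 over both hairpins (adjusted p = 1.84e-12, edgeR) and the third 3′ UTR SNP alone 1.31 (adjusted p = 2.85e-05, edgeR). With that 3′ UTR SNP alone the rise under shSetdb1.6 was 1.05 and no longer passed (adjusted p = 0.152, edgeR).

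Total reads of Klhl13, the sum of both alleles, rose as well. From day 3 to day 5 in the knockdown libraries they rose by 1.52 on the log2 scale (standard error 0.19, 95% interval 1.12 to 1.93, a 2.88-fold rise, adjusted p = 2.28e-05 by edgeR), where 41.7% of the 247 genes passed in either direction and 23.9% as a rise. The rise was 1.28 with shSetdb1.4 (adjusted p = 0.00239, edgeR, with 29.1% of genes called) and 1.77 with shSetdb1.6 (adjusted p = 0.000581, edgeR, with 19.4% called). Taken by allele, CAST reads rose by 2.10 on the log2 scale, which is 4.30-fold (95% interval 3.19 to 5.78, adjusted p = 6.33e-07, edgeR, with 32.8% of genes called). They rose by 1.83 with shSetdb1.4 (adjusted p = 0.000193, edgeR, with 21.9% called) and by 2.38 with shSetdb1.6 (adjusted p = 3.03e-05, edgeR, with 16.2% called). Over both hairpins the 129 reads rose by 0.70, which is 1.63-fold (95% interval 1.15 to 2.30, adjusted p = 0.0274, edgeR, with 42.9% of genes called). Neither hairpin passed on its own: the difference was 0.40 with shSetdb1.4 (95% interval -0.30 to 1.10, adjusted p = 0.370, edgeR, with 25.9% called) and 1.01 with shSetdb1.6 (95% interval 0.29 to 1.72, adjusted p = 0.0605, edgeR, with 13.8% called). In all 4 pairs of hairpin and replicate number the 129 reads were higher at day 5 (1.17-fold to 2.19-fold). With a replicate term added to the fit the rise was 0.67 (adjusted p = 0.000874, edgeR). The call over both hairpins held in 6 of 10 alternatives and did not survive leaving out any 1 of 4 libraries. Its adjusted p became 0.112 without replicate 2 of shSetdb1.4 at day 3, 0.103 without replicate 2 of shSetdb1.6 at day 3, 0.0977 without replicate 1 of shSetdb1.4 at day 5 and 0.143 without replicate 1 of shSetdb1.6 at day 5 (edgeR).

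Against day 0, the knockdown libraries differed beyond the error at day 5 and not at day 3. Day 0 cells were neither transduced nor selected, so time, transduction, selection and knockdown cannot be told apart in these comparisons. At day 3 the log2 Xi/Xa ratio was 0.24 above day 0 (95% interval -0.14 to 0.61, adjusted p = 0.80, edgeR) and total reads were 0.32 above it (95% interval -0.18 to 0.82, adjusted p = 0.414, edgeR). By day 5 the ratio had risen by 1.68 (standard error 0.18, adjusted p = 2.64e-18, edgeR), where 10.9% of genes passed, and total reads by 1.85 (standard error 0.25, adjusted p = 4.98e-05, edgeR), where 36% did. CAST reads were 5.89-fold higher than at day 0 (adjusted p = 2.80e-06, edgeR, with 26.7% of genes called) and 129 reads 1.88-fold higher (adjusted p = 0.0308, edgeR, with 30.4% of genes called). The call for 129 reads held in 4 of 8 alternatives. It was lost without replicate 2 of day 0, without replicate 1 of shSetdb1.4 at day 5 and without replicate 1 of shSetdb1.6 at day 5. Scaling to the library total alone also lost it (adjusted p = 0.0533, edgeR). With a replicate term added to the fit the rise of 129 reads was 0.88 on the log2 scale (adjusted p = 0.000721, edgeR).

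Before differentiation the 129 allele gave more Klhl13 reads than the CAST allele in both replicates, but the call depended on the setting. The log2 ratio at day 0 was -0.42 (standard error 0.15, 95% interval -0.72 to -0.12, adjusted p = 0.0313 for a difference from equal alleles, edgeR), where 22.3% of genes passed. This call was lost when either replicate of day 0 was left out, with estimates between -0.59 and -0.27. It was also lost without the allele effect of the replicate (adjusted p = 0.0803), with the coding SNP alone (0.384) and with the third 3′ UTR SNP alone (0.0705), all from edgeR. DESeq2 gave an adjusted p of 0.12. The median log2 ratio of the tested genes also lay on the 129 side at day 0, at -0.14 and -0.05. With ratios centred on that median the Klhl13 estimate was -0.32 (adjusted p = 0.0389, edgeR).

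The study asked whether Setdb1 knockdown changes silencing of the Xi. The Nons libraries of both days chose Klhl13, so its differences from them are a description, with no test, and nothing is read from their size. Knockdown minus Nons, the fitted log2 Xi/Xa ratio of Klhl13 was -0.01 at day 5 and -0.29 at day 3, and its fitted log2 total reads were 0.07 at day 5. With each library centred on its median the ratio difference at day 5 was -0.35. Over the 247 genes the median ratio difference at day 5 was 0.35, and 4.05% of them passed the test. The hairpins can be compared with each other without Nons. Between them at day 5 the ratio was 0.40 lower with shSetdb1.6 than with shSetdb1.4, a difference of -0.40 (95% interval -0.75 to -0.04, adjusted p = 0.841, edgeR). That difference was -0.71 and passed (adjusted p = 0.0228, edgeR) when replicate 1 of shSetdb1.4 at day 5 was left out, which leaves replicate 2 of shSetdb1.4 as the only library of its condition, assumed to vary like the others. Replicate 2 of shSetdb1.4 had the highest CAST percentage at day 5 both for Klhl13 and over all SNP reads. Centred on the library median, the log2 ratios of replicates 1 and 2 of shSetdb1.4 at day 5 were 1.36 and 1.64. Without centring they were 1.09 and 1.83. The difference between the hairpins at day 5 was -0.44 with centred ratios (adjusted p = 0.100, edgeR). The part of the library-wide value in the Klhl13 value was not tested.

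**Figure D3:**
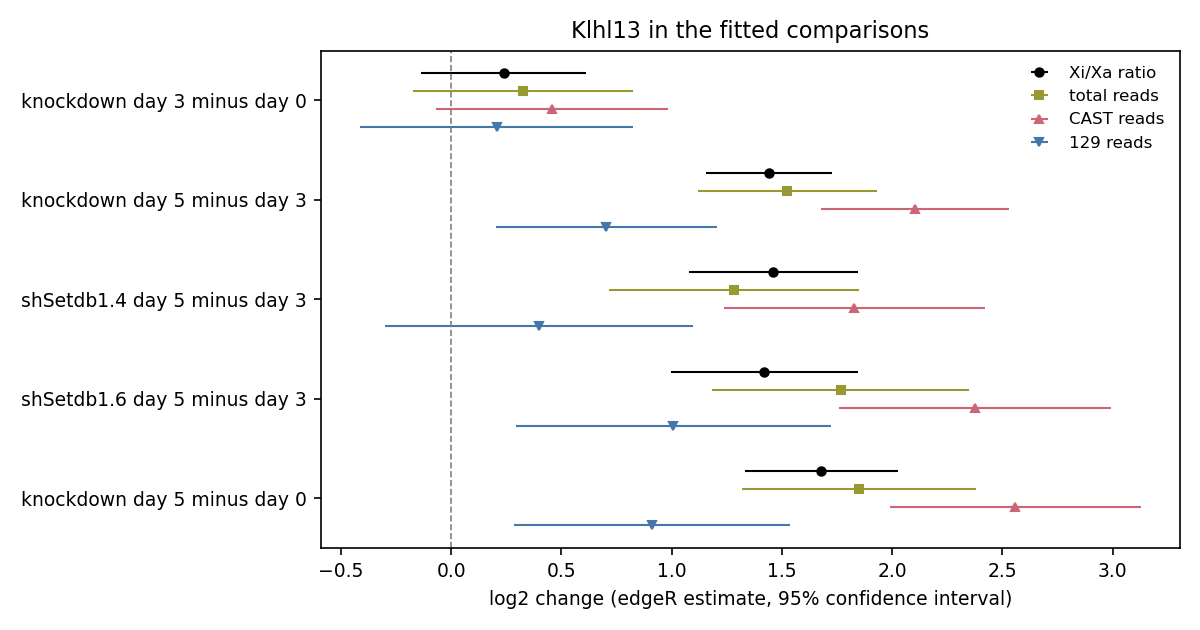
Log2 changes of Klhl13 (x axis) in 5 comparisons (y axis) for the Xi/Xa ratio, total reads, CAST reads and 129 reads, as edgeR estimates with 95% confidence intervals. The intervals for the ratio, total and CAST reads lie right of 0 in the comparisons of day 5 with an earlier day, and all intervals of knockdown day 3 minus day 0 include 0.

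Among the libraries that took no part in the choice, Klhl13 had one of the highest Xi/Xa ratios only at day 5. Of the 247 genes it ranked 180 and 196 at day 0 and between 112 and 194 in the knockdown libraries of day 3. In those of day 5 it ranked between 2 and 7, where rank 1 is the highest ratio. The Nons libraries, which chose the gene, had it at ranks 102 and 92 at day 3 and 2 and 3 at day 5, given as a description. Of the 11 genes whose ratio rose from day 3 to day 5 in the knockdown libraries, Lrch2 had a larger estimate than Klhl13, at 1.56 with a standard error of 0.34 on fewer reads. Of these 11, 4 were also among the 59 genes with higher total reads (36.4% of the first list and 6.78% of the second), namely Klhl13, Tmem47, Flna and Xk. Over all 247 genes 23.9% had higher total reads and 4.45% a higher ratio, and the overlap was not tested. Xk encodes a membrane protein of red cells and other tissues; its ratio rose by 0.79 (adjusted p = 0.0271, edgeR) and its total by 0.55 (adjusted p = 0.0362, edgeR).

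**Figure D4:**
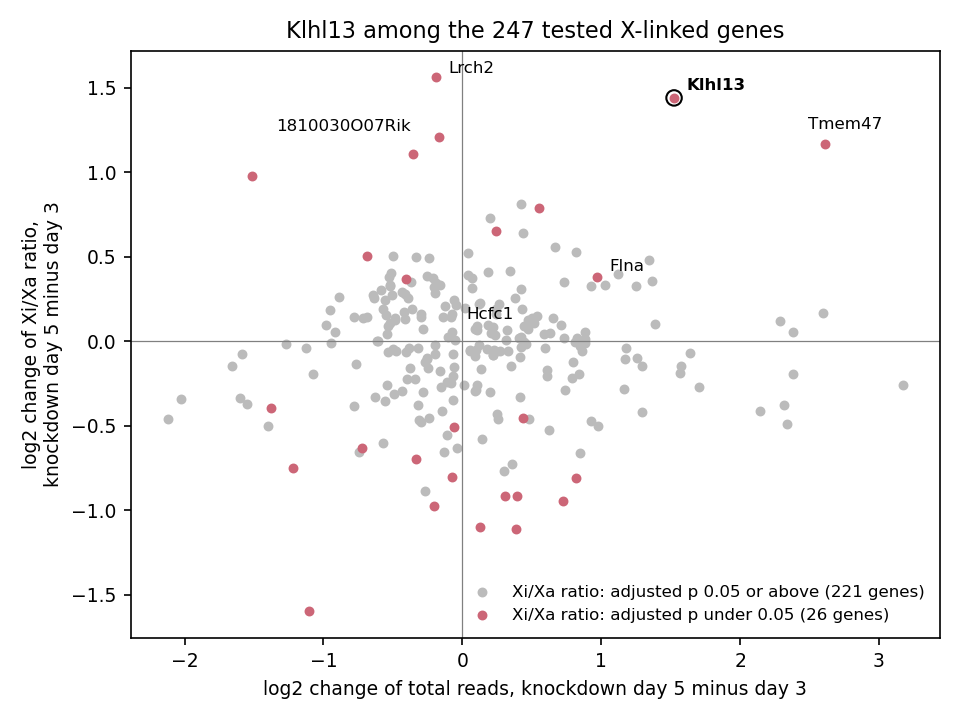
Log2 change of total reads (x axis) against log2 change of the Xi/Xa ratio (y axis) from day 3 to day 5 in the knockdown libraries, 1 point for each of the 247 tested genes, with the 26 genes whose ratio passed adjusted p 0.05 in red. Klhl13 (circled) lies at 1.52 on the x axis and 1.44 on the y axis.

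The genes with the pattern most like that of Klhl13 were taken by Pearson's r of the log2 Xi/Xa ratio, centred on each library's median, over the 14 libraries. They were Tmem47 (r = 0.955), Lrch2 (0.921), 1810030O07Rik (0.892), Flna (0.892) and Hcfc1 (0.857), against a median r of 0.02 over the 246 other genes. The points share libraries, conditions and the centring, so these values are a description. Tmem47, which encodes a membrane protein of cell junctions, had 24.1% and 27.2% CAST reads at day 0, 24.7% to 33.3% at day 3 and 41.5% to 49.8% at day 5. Its CAST share stayed at or below that of 129, unlike that of Klhl13, and its total reads rose by 2.61 on the log2 scale from day 3 to day 5 under knockdown (adjusted p = 1.58e-08, edgeR). Lrch2, which encodes a protein with leucine-rich repeats, had 20.9% to 37.0% CAST reads at day 3 and 43.9% to 55.8% at day 5, on 20 to 94 reads per library. 1810030O07Rik had 10.3% to 24.5% at day 3 and 20.5% to 29.2% at day 5.

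The last pair of this list moved less. Flna, the actin cross-linker filamin A, had 43.6% to 45.4% CAST reads at day 3 and 41.8% to 55.4% at day 5, with 880 to 5673 reads per library. Its fitted ratio was 0.38 higher at day 5 than at day 3 under knockdown, a value given without a test because the ratio chose the gene, and its total reads rose by 0.97 (adjusted p = 0.000456, edgeR). Hcfc1, a chromatin-associated cell cycle regulator, had 48.1% to 50.7% at day 3 and 44.8% to 58.6% at day 5, and its fitted ratio was 0.25 higher at day 5 under knockdown. From day 3 to day 5 under knockdown the totals of the other 3 did not pass in edgeR, at -0.19 for Lrch2 (adjusted p = 0.522), -0.17 for 1810030O07Rik (adjusted p = 0.521) and -0.06 for Hcfc1 (adjusted p = 0.785), and the median over the 5 genes was -0.06 against 0.04 over all genes. None of the 5 genes had a library with a CAST percentage as high as the lowest of Klhl13 at day 5, 64.7%.

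**Figure D5:**
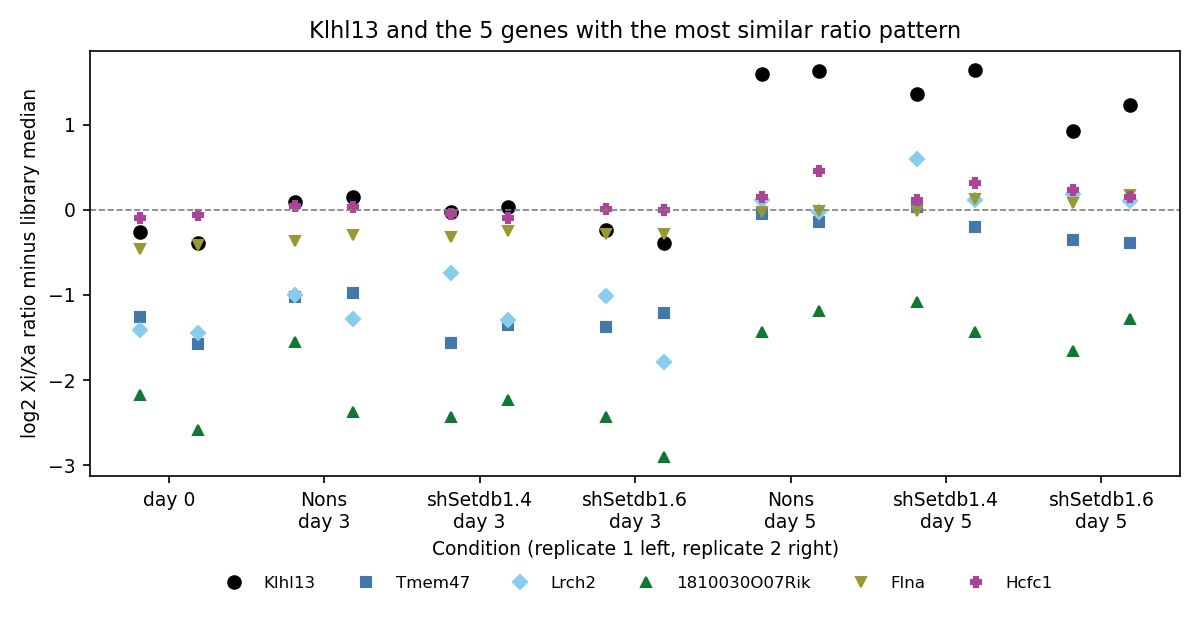
Log2 Xi/Xa ratio minus the library median (y axis) of Klhl13 and the 5 genes with the highest correlation to it, in each of the 14 libraries (x axis, replicate 1 left and replicate 2 right). Klhl13 lies between -0.39 and 0.15 relative to the median up to day 3 and between 0.93 and 1.64 above it at day 5, where the other 5 genes lie below Klhl13 in every library.

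The nearest tested genes lay far from Klhl13, and from day 3 to day 5 under knockdown their ratios did not pass the test. On the side of lower coordinates these were Cfp, Elk1 and Zfp182, whose starts lie at -2.29 Mb, -2.29 Mb and -2.19 Mb from that of Klhl13, and on the other side Pgrmc1, Nkap and Lamp2 at 13.4 Mb, 13.9 Mb and 15.2 Mb. Of these 6 genes, 0 passed the test of the ratio from day 3 to day 5 under knockdown by edgeR, and 0 by DESeq2, against 10.5% of all genes by edgeR, and 1 (Nkap, an RNA processing and transcription regulator) had an unadjusted p under 0.05. Against day 0, the ratio at day 5 under knockdown passed as higher for 1 of the 6, Nkap (0.60, adjusted p = 0.0241, edgeR), where 10.9% of all genes passed. From day 3 to day 5 the changes ran from -0.29 for Lamp2, a lysosomal membrane protein, to 0.39 for Nkap. Lamp2 had 43.9% to 64.4% CAST reads at day 3 and 46.3% to 62.3% at day 5. Pgrmc1, a haem-binding membrane protein, stayed at a low share, with 15.4% to 26.5% at day 3 and 12.5% to 29.1% at day 5. From day 3 to day 5 total reads rose for Elk1 (0.52, adjusted p = 0.040, edgeR) and Lamp2 (0.74, adjusted p = 0.0313, edgeR) and the other 4 did not pass, where 41.7% of all genes passed in either direction and 23.9% as a rise. Against day 0, 0 of the 6 totals passed as higher in edgeR and 3 passed as lower, where 36% of all genes passed. These were Lamp2 (-1.02, adjusted p = 0.0150, edgeR), Cfp (-1.60, adjusted p = 0.000407, edgeR) and Nkap (-0.52, adjusted p = 0.0201, edgeR), and Elk1 differed by -0.01 (adjusted p = 0.980, edgeR).

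Other X-linked genes of the same family and pathway were counted from 3 lists. Of 3 Kelch-like genes (Klhl4, Klhl15 and Klhl34), only Klhl15 had SNPs with reads, and with 2 to 25 reads per library it was too shallow to test. Of 25 genes of ubiquitin ligases and their partners, 15 had SNPs and 12 could be tested. The ratio rose from day 3 to day 5 under knockdown for 1 of them and fell for 1, where 10.5% of all genes passed in either direction and 4.45% as a rise, and the median change of 0.06 was close to that of all genes (-0.01). Usp9x, a deubiquitinase, rose by 0.37 (adjusted p = 0.0259, edgeR), with 46.1% to 49.7% CAST reads at day 3 and 43.9% to 59.6% at day 5. Ubl4a, a ubiquitin-like protein of tail-anchored protein insertion, fell by 1.10 (adjusted p = 0.0259, edgeR). DESeq2 called 0 of the 12 ratios. Total reads rose for 5 of the 12 and fell for 1, where 41.7% of all genes passed, with a median change of 0.27 against 0.04. Against day 0, edgeR called the ratio of 1 of the 12 (Usp9x) higher and 0 lower, and the totals of 4 higher and 1 lower, where 10.9% and 36% of all genes passed. From day 3 to day 5 the largest rise in total was that of Rnf128, a membrane-bound ubiquitin ligase (2.34, adjusted p = 2.06e-05, edgeR), whose CAST share was 51.6% to 68.1% at day 3 and 42.7% to 54.9% at day 5. Rlim, the ubiquitin ligase that activates Xist, rose by 1.26 (adjusted p = 4.27e-05, edgeR), with CAST reads at 41.6% to 52.5% at day 3 and 36.5% to 49.4% at day 5. In both ligases the highest CAST share of day 5 lay below the highest of day 3, unlike in Klhl13, and their ratio changes of -0.49 and -0.10 did not pass (adjusted p = 0.372 and 0.725, edgeR).

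Of 6 X-linked genes known from X dosage or pluripotency, 4 had SNPs and 3 could be tested, and Nr0b1 was too low at day 5. The ratio test called 0 of the 3 under knockdown from day 3 to day 5 by edgeR and 0 by DESeq2, and 0 had an unadjusted p under 0.05 in edgeR, where 10.5% of all genes passed by edgeR. Dusp9, the other dosage gene of female ES cells, had total reads of 200 to 397 per 100000 at day 3 and 364 to 744 at day 5, a rise of 0.86 (adjusted p = 0.000573, edgeR). Its CAST share was 45.9% and 46.0% at day 0, 47.9% to 54.1% at day 3 and 41.7% to 51.9% at day 5, and its ratio change was -0.06 (95% interval -0.42 to 0.30, adjusted p = 0.925, edgeR). Against day 0 the total of Dusp9 was 0.78 higher at day 5 (adjusted p = 0.00669, edgeR). Elk1, a transcription factor downstream of MAP kinase, had 162 and 175 reads per 100000 at day 0, 88 to 136 at day 3 and 121 to 180 at day 5, and its total did not differ from day 0 beyond the error at day 5, as given above. Tfe3, a transcription factor tied to exit from the naive state, differed by -0.07 in total from day 3 to day 5 (adjusted p = 0.754, edgeR).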

How the data were processed

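RNA was sequenced in 14 libraries of 1 ES cell line, in 7 conditions with 2 replicates each, grouped by the labels. Reads were aligned by the authors with Subread (mm10), and reads of each allele, 129 or CAST, were counted by samtools pileup at X-linked SNPs of the Mouse Genomes Project. The deposited values are raw counts for each SNP and library, not normalized, and replicates were not pooled. Of the deposited columns 4 match no sample and were not used. SNPs were assigned to genes by the exons of GENCODE M21 on the same build, and 2173 of 2239 SNPs lay in exons of exactly 1 gene. Sequences were read from its transcripts. Whether counting used strand is not given in the sources used here.

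Counts were summed over the SNPs of a gene. The Xi/Xa ratio of a library was (CAST + 1)/(129 + 1). Levels are reads per 100000 X-linked SNP reads of the library. Tests covered the 247 of 355 genes that had 10 or more reads in all libraries and were run with edgeR 4.0.16 in R 4.3.3 (quasi-likelihood test, Benjamini-Hochberg adjustment, threshold 0.05). The ratio model held library terms, allele effects by condition and an allele effect of the replicate number. Totals were fitted by condition with TMM normalization. The allele-specific levels used the TMM factors of the totals. DESeq2 1.42.0 was an alternative, and other filters, scalings, SNPs and left-out libraries were tried. The models were tested on simulated data. Python 3.11.15, numpy 2.4.6, pandas 2.3.3, scipy 1.17.1 and matplotlib 3.10.9 were used for the rest.

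Klhl13, the lists and the tests were chosen with earlier results of these data known. The named genes are Klhl13, the 5 genes most like it in ratio, the 3 nearest tested genes on each side and members of 3 lists. Of the lists, 1 gene was left out and is not reported here, and list members that are not named enter the counts. Xk, Pfkfb1 and Tsc22d3 were named after their values were seen. The labels place the transduction on day 2, the methods at the start of differentiation.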

Additional observations from a re-analysis of the deposited data

Results flagged for a closer look

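Replicate 2 of shSetdb1.6 at day 5 stood apart from the other 3 knockdown libraries of that day in CAST reads of Klhl13. It had 870 reads per 100000 X-linked SNP reads, while the others had 1179, 1188 and 1192, and Dixon's ratio of the gap to the range was 0.958 against a critical value of 0.829 for 4 libraries. This was the only such gap among 16 examined (the highest and the lowest library for 4 measures at 2 days), and chance gives about 1 in 20 groups. Without this library the rise of CAST reads from day 3 to day 5 under knockdown was 2.24 on the log2 scale, and 2.10 with it.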

How the results depend on the processing

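The Klhl13 rise of the Xi/Xa ratio from day 3 to day 5 under knockdown kept its direction and its call in all 16 alternatives, between 1.31 and 1.50 on the log2 scale over settings and between 1.28 and 1.59 when 1 library was left out, with adjusted p from 9.37e-20 to 2.85e-05. The rise of total reads did so in 15 of 15 (1.33 to 1.54, and 1.36 to 1.66 with a library left out), the ratio against day 0 in 14 of 14 and total reads against day 0 in 13 of 13. The exact test of the ratio gave the same difference of 1.44 when paired, where 4 pairs cannot pass 0.05.

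Knockdown minus Nons, given without a test, changed sign between settings. The ratio difference was 0.0043 with no replicate block, 0.21 with Klhl13 taken from 1 UTR SNP, and -0.15 to 0.15 with 1 library left out. Total reads differed by -0.21 to 0.34 with 1 library left out. At day 3 total reads differed by -0.0019 with DESeq2, -0.0062 with the replicate block, -0.0066 with no filter and -0.0027 with library sizes from 129 reads, and by -0.12 to 0.14 with 1 library left out. Between the hairpins, the difference in the rise of the ratio was 0.16 with 1 SNP per gene and -0.36 to 0.25 with 1 library left out, the ratio at day 3 differed by 0.16 with 1 UTR SNP, and total reads at day 5 by -0.44 to 0.15 with 1 library left out. In Nons the difference between day 5 and day 3 was 1.53 with 1 SNP per gene, 1.49 with centred ratios and 0.71 with 1 UTR SNP.

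Replicate numbers do not pair all libraries by their deviations. The mean correlation of same-numbered libraries was 0.05 for ratios, with 7 of 21 pairs above 0.1, and 0.21 for totals, with 17 of 21 above 0.1 and the lowest at -0.06. With the replicate block the calls for totals went from 103 to 122 genes from day 3 to day 5 under knockdown and from 89 to 109 against day 0. With no replicate block the ratio calls from day 3 to day 5 under knockdown went from 26 to 16 genes, against day 0 from 27 to 15, and for knockdown minus Nons from 10 to 0. DESeq2 called 12, 8 and 5 in these comparisons, and 34 instead of 55 at day 0. For knockdown minus Nons no filter gave 3 and at least 30 reads 15. The causes were not tested. The alternative with the contrast's libraries only could not be fitted for day 0 alone. The alternatives with 1 UTR SNP, with library sizes from 129 reads and for each allele were chosen after seeing the data. Depth limits single SNPs: at day 3 a single 3′ UTR SNP had 36 to 95 reads per library.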
